A study of Rattus norvegicus with 20 samples.

Results

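Toll-like receptors are the membrane receptors with which innate immune cells sense microbial molecules and molecules released by damaged cells, and Cd14 is a surface protein that hands lipopolysaccharide to Tlr4 and also assists other members. The genes described here were the 10 symbols Tlr1 to Tlr9 and Cd14, taken by name from a table of 30443 rat genes. Of these 9 were found, and Tlr1 was not analysed here. The 7 named Tlr2, Tlr3, Tlr4, Tlr7, Tlr8, Tlr9 and Cd14 reached 1 FPKM (sequenced fragments scaled by transcript length and by library size) in at least 1 library and entered the tests, with 15210 genes in all. Tlr5 and Tlr6 stayed below that limit in every library and are given as levels.

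The series held 20 RNA-seq libraries from 4 adult female wild-type Long-Evans rats aged about 6 to 8 months, with 1 library per animal from each of 5 tissue regions. All 4 animals carried a hemicontusion of the cord at cervical level 4, made with a displacement of 0.7 mm, and an array of electrodes implanted in motor cortex opposite the injury. The study's methods add dexamethasone and the antibiotic enrofloxacin around surgery for all of them. The 2 stimulated animals received a week of cortical stimulation for 5 hours a day at 10 Hz, at 80% of the current that moved the forelimb, whereas the 2 control animals were handled as sham controls, without current. Region 1 was subcortical white matter under the implant, region 2 the matching block in the other hemisphere, region 3 the cord rostral to the injury, region 4 the lesion epicentre and region 5 the cord caudal to it. No uninjured or unimplanted animal was among the libraries, so every level below is a level after injury and implantation, and the regions of an animal share that animal. Replicates were separate animals, and 2 animals against 2 cannot give an exact two-sided permutation p below 0.333.

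The receptors divide the work by ligand and by place in the cell. At the surface, Tlr2 pairs with Tlr1 or Tlr6 to bind bacterial lipoproteins, Tlr4 with its partners binds lipopolysaccharide, and Tlr5 binds flagellin. In endosomes, Tlr3 binds double-stranded RNA, Tlr7 and Tlr8 are receptors of single-stranded RNA (rodent Tlr8 being far less responsive to classical ligands than its human counterpart), and Tlr9 binds unmethylated CpG DNA. These depend on the chaperone Unc93b1 to reach that compartment. All except Tlr3 signal through the adaptor Myd88. In the brain and cord, microglia and macrophages carry most of these receptors, astrocytes are a further known source of Tlr3, and monocytes and neutrophils bring Tlr2, Tlr4, Tlr8 and Cd14 with them when they enter tissue.

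The promoters of 4 members are shown because the results below turn on them. The surface receptors Tlr2 and Tlr4 stood at different heights above the rest in a single animal. The endosomal receptors Tlr7 and Tlr8 passed the tests of region 1 against region 2 and of region 3 against region 4. Tlr9 passed these tests as well, and its window is not shown. The sequences are those of RefSeq on the GRCr8 assembly, a later build than the one behind the expression table, and run from 250 bases before the annotated transcription start to 50 after it, 5′ to 3′ on the gene's strand. Capitals in Tlr2 mark matches to the kappa B motif (GGG, 5 bases of any kind, then CC), and capitals in the other genes mark the Ets core GAGGAA, the core of the sequence bound by the myeloid factor PU.1, on either strand (TTCCTC where it lies on the opposite strand).
Tlr2 promoter, chr2:171504508-171504807, minus strand: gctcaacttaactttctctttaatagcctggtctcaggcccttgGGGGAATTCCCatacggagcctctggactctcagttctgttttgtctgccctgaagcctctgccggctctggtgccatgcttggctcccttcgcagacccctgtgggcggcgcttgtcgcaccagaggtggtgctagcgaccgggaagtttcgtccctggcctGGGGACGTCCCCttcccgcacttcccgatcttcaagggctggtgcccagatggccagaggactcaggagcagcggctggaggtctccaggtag
Tlr4 promoter, chr5:85160997-85161296, plus strand: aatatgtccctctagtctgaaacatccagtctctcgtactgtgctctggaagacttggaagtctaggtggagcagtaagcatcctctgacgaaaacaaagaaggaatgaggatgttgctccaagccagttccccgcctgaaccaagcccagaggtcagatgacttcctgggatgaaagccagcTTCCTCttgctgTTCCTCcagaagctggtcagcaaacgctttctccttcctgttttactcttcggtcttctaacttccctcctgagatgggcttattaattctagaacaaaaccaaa
Tlr7 promoter, chrX:30644176-30644475, plus strand: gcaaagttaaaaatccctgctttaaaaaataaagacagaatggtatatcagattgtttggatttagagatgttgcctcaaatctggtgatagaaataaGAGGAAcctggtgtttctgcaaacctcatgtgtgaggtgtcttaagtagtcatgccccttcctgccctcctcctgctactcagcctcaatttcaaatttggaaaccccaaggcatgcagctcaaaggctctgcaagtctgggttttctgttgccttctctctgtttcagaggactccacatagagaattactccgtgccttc
Tlr8 promoter, chrX:30708476-30708775, plus strand: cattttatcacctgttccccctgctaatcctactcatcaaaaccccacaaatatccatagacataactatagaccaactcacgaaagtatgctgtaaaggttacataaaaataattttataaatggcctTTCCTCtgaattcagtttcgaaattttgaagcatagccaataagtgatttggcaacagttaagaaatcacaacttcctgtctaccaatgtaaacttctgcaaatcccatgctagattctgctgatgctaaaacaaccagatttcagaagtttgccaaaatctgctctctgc
All 10 symbols had a promoter in the RefSeq table. The Ets core stood in 7 of the 10 windows (Tlr3, Tlr4, Tlr6, Tlr7, Tlr8, Tlr9 and Cd14), beside 27.5% of all 27457 rat promoters of this length, and the longer PU.1 sequence GAGGAAGT in 0 of 10, beside 2.44%. The kappa B motif was found for Tlr2, Tlr3 and Cd14, 3 of 10 beside 48.5% of all promoters, with 5 overlapping matches in the Tlr2 window that fall into the stretches in capitals. The C/EBP motif TTGCNNAA stood in the Tlr7 and Tlr8 windows (2 of 10, 10.5% of all promoters) and the AP-1 motif TGANTCA in the Tlr9 window (1 of 10, 7.33%), while the interferon response element (GAAA, 2 bases of any kind, then GAAA) was in 0 of 10 (3.77%). Such matches describe letters in a window and show no binding.

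Libraries that stand apart are named before the results, because they touch most of them. The region 1 and region 2 libraries of stimulated animal 2 differed from the other white matter libraries in markers of blood leukocytes. In region 1 the summed level of 8 neutrophil markers was 125 FPKM in that animal against 1.72 to 3.31 in the other 3, with S100a9 at 77.4, S100a8 at 34.5 and the receptor Cxcr2 at 5.69, while the granule genes Elane and Camp were at 0.372 and 0.284. The summed level of 7 markers of infiltrating monocytes and macrophages was 463 FPKM against 53.5 to 81.2. Most of that sum was the single gene Lyz2, at 405 FPKM. The sum of 5 T cell markers was 5.84 against 0.764 to 0.975, and that of 7 microglial markers 104 against 104 to 147. In region 2 of the same animal the neutrophil list summed to 12.8 FPKM against 1.12 to 1.51, the monocyte and macrophage list to 101 against 17.9 to 23.8, a list of 8 genes shared by all myeloid cells to 291 against 38.1 to 45.4, and the microglial list to 158 against 68.4 to 70.6. Lists of resident cells stood apart there as well. In regions 1 and 2 of this animal 4 astrocyte markers summed to 1130 and 929 FPKM against 571 to 959 and 209 to 259 in the others. The 4 fibroblast markers summed to 72.5 and 22.9 FPKM against 16.6 to 27.3 and 4.15 to 6.08. Neuronal markers were lower, at 817 and 1196 FPKM against 1183 to 1322 and 1287 to 1535. The label of white matter was also checked. The cortical glutamate transporter Slc17a7 lay between 225 and 329 FPKM in the 8 white matter libraries and between 0.318 and 11.8 in the 12 cord libraries. In turn, 4 oligodendrocyte markers summed to 626 to 2637 FPKM in white matter and 6796 to 10018 in cord. The blocks labelled white matter thus held neuronal RNA, and their share of grey matter was not tested. In bulk tissue, fewer cells of a type and less RNA per cell cannot be told apart.

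**Figure D1:**
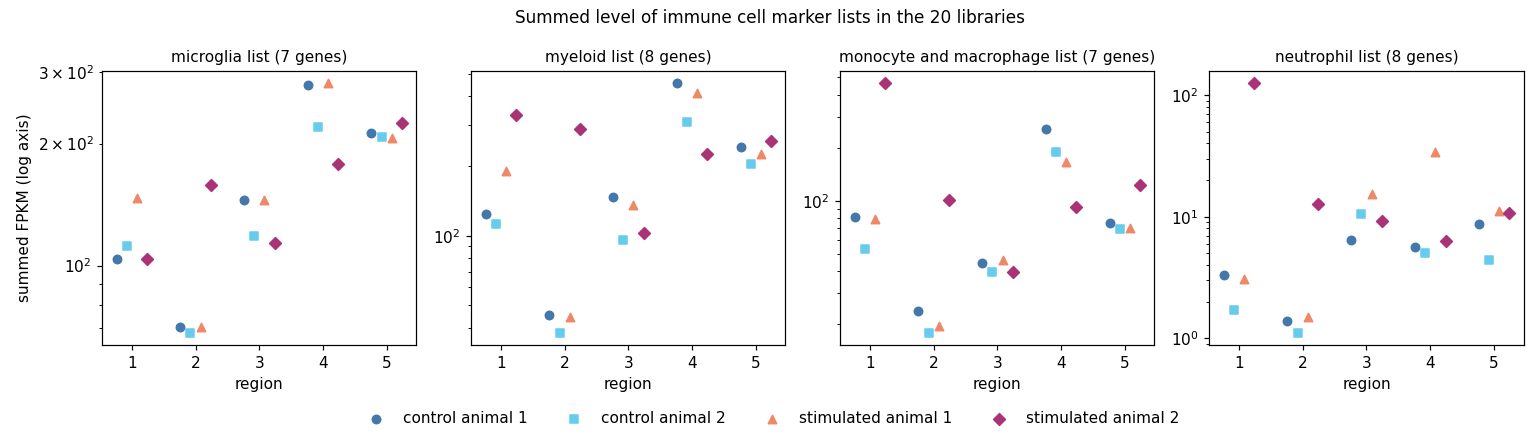
Summed FPKM (log axis) of 4 marker lists, microglia (7 genes), all myeloid cells (8), infiltrating monocytes and macrophages (7) and neutrophils (8), in each of the 5 regions, with 1 point per library and a marker per animal. In regions 1 and 2 the points of stimulated animal 2 lie above those of the other 3 animals in the myeloid, monocyte and neutrophil panels, and in region 1 its microglial sum of 104 FPKM lies within the range of the others.

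Tlr2, the shared partner of the lipoprotein receptors, was the most abundant member in region 1. Values are given throughout in the order control animal 1, control animal 2, stimulated animal 1 and stimulated animal 2. In region 1 Tlr2 stood at 3.66, 3.10, 4.68 and 18.3 FPKM, and in region 2 at 1.00, 0.902, 1.27 and 10.4. Stimulated animal 2 was far above the other 3 on both sides of the brain, and stimulated animal 1 was also above both controls. In the cord Tlr2 was 2.69, 1.88, 2.02 and 2.18 FPKM in region 3, 7.44, 5.08, 6.06 and 4.44 in region 4, and 3.59, 3.64, 3.60 and 5.07 in region 5. Each animal's lesion library was above its rostral library, and the libraries of regions 3 and 4 did not overlap. Its partner Tlr6 followed at a lower level, with 0.301, 0.192, 0.318 and 0.775 FPKM in region 1 and 0.691, 0.506, 0.626 and 0.424 in region 4. Tlr6 reached at most 0.775 FPKM in any library.

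Cd14, which delivers lipopolysaccharide, stood at 1.73, 1.22, 2.22 and 14.2 FPKM in region 1 and at 0.395, 0.363, 0.389 and 4.28 in region 2. In region 2 the other 3 animals were nearly alike, and stimulated animal 2 was 10.8 times the highest of them. In the cord the values were 1.11, 1.06, 1.08 and 1.04 FPKM in region 3, 4.71, 3.58, 3.87 and 2.15 in region 4 and 2.05, 1.41, 2.25 and 2.91 in region 5. Rostral to the injury the 4 animals were thus nearly alike (mean 1.07 ± 0.0320 FPKM, SD, n = 4), and at the lesion stimulated animal 2 was the lowest.

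Tlr4, the lipopolysaccharide receptor, was 2.45, 1.52, 2.56 and 3.77 FPKM in region 1, 0.909, 0.750, 0.767 and 3.60 in region 2, and 3.07, 2.47, 2.74 and 2.71 in region 3. At the lesion it was 6.28, 4.53, 5.34 and 3.95 FPKM and caudal to it 4.07, 3.74, 4.43 and 5.16. The lesion was highest in 3 animals, and in stimulated animal 2 the caudal cord was highest. Tlr5, the flagellin receptor, was listed at the table's lowest value of 0.1 FPKM in 14 of the 18 libraries other than the white matter of stimulated animal 2, with at most 0.143 there, and reached 0.660 in region 1 of that animal.

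Tlr3, the endosomal sensor of double-stranded RNA, was more a cord than a white matter transcript. It was 1.81, 1.63, 2.28 and 2.23 FPKM in region 1 and 0.883, 0.761, 0.889 and 3.22 in region 2. In region 1 it was the only member found that was not highest in stimulated animal 2. In the cord it was 3.49, 2.89, 3.65 and 3.06 FPKM in region 3, 6.23, 4.63, 6.00 and 4.78 in region 4 and 4.28, 4.08, 4.97 and 5.51 in region 5. The lowest cord library, at 2.89 FPKM, was above 7 of the 8 white matter libraries. Beside it, the astrocyte list summed to 209 to 1130 FPKM in white matter, 1136 to 1563 in region 3, 1810 to 2584 in region 4 and 2137 to 2466 in region 5, and its part in the Tlr3 level was not tested.

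Tlr7, which binds single-stranded RNA, stood at 3.07, 2.19, 3.34 and 5.23 FPKM in region 1, 0.979, 0.730, 0.873 and 4.49 in region 2 and 2.31, 1.43, 1.83 and 1.50 in region 3. At the lesion it was 7.01, 4.63, 6.01 and 4.04 FPKM and caudal to it 3.28, 2.90, 3.28 and 4.02. Every lesion library was above every rostral and every caudal library, at the closest by 4.04 against 4.02 FPKM in stimulated animal 2. Tlr8, its neighbour on the X chromosome, was 1.26, 0.750, 1.09 and 4.69 FPKM in region 1 and 0.183, 0.1, 0.1 and 1.34 in region 2, where 2 libraries were at the lowest value of the table. In the cord it was 0.363, 0.270, 0.358 and 0.271 FPKM in region 3, 3.50, 2.76, 1.55 and 0.992 in region 4 and 0.684, 0.782, 0.635 and 1.11 in region 5. Both controls were above both stimulated animals at the lesion. Tlr9, the sensor of CpG DNA, was 0.686, 0.612, 0.594 and 1.16 FPKM in region 1, 0.224, 0.1, 0.106 and 1.00 in region 2 and 0.706, 0.344, 0.347 and 0.292 in region 3. It was 1.68, 1.22, 1.43 and 1.16 FPKM in region 4 against 0.806, 0.565, 0.557 and 0.555 in region 5. All 4 lesion libraries were above all caudal ones.

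**Figure D2:**
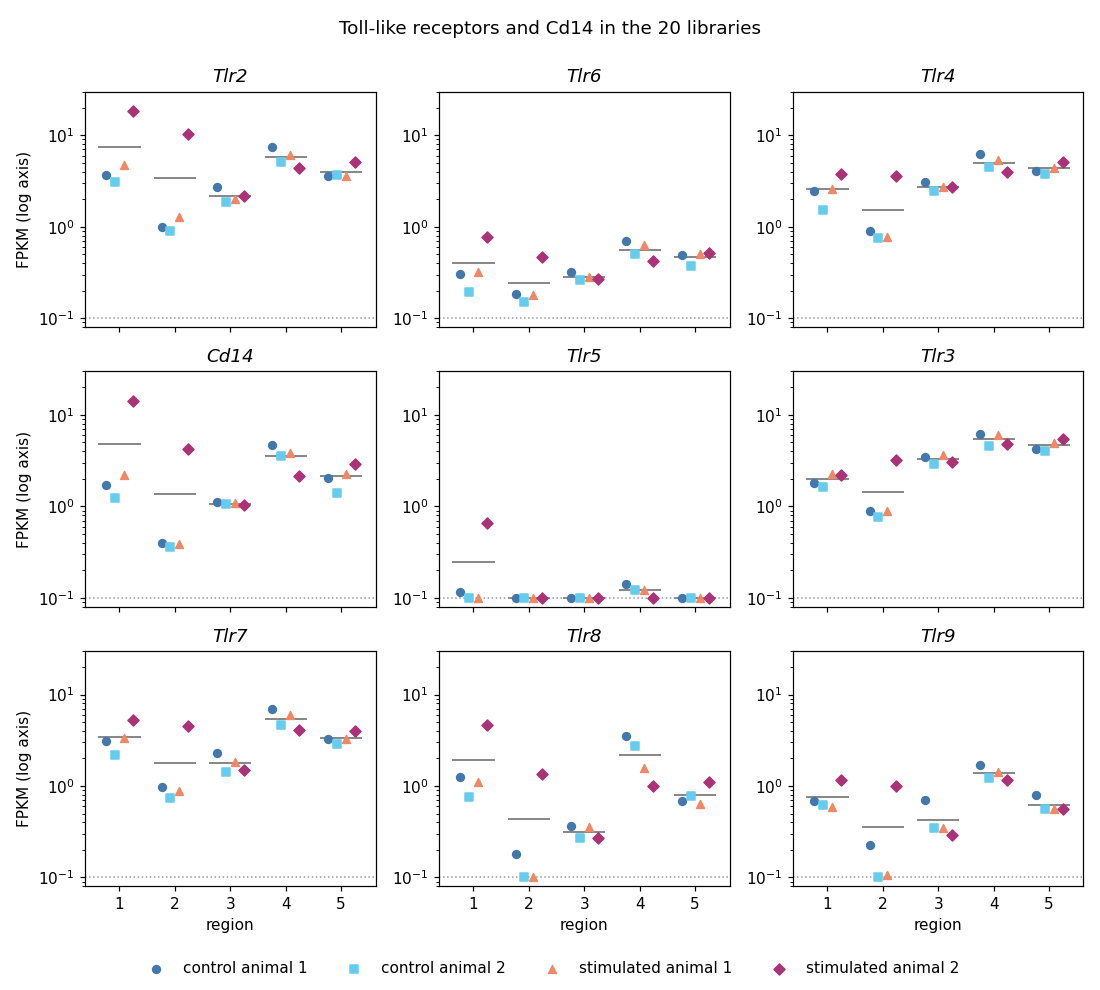
FPKM (log axis) of the 9 members found, 1 panel per gene, across regions 1 to 5, with a marker per animal, a grey line at each region's mean over 4 libraries, and a dotted line at 0.1 FPKM, the lowest value the table holds. Region 2 is the lowest for 3 of 4 animals in most panels, region 4 is above region 3 in every animal for 8 of the 9 genes, and stimulated animal 2 stands above the others in regions 1 and 2, except for Tlr3 in region 1.

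The levels of the members were ordered differently by region. At the lesion the means over 4 libraries were 5.75 ± 1.32 FPKM (SD) for Tlr2, 5.41 ± 0.818 for Tlr3, 5.42 ± 1.34 for Tlr7, 5.02 ± 1.01 for Tlr4, 3.58 ± 1.07 for Cd14, 2.2 ± 1.14 for Tlr8 and 1.37 ± 0.238 for Tlr9. The first 4 of these did not differ beyond their spread. Rostral to the injury Tlr3 (3.27 ± 0.359 FPKM) and Tlr4 (2.75 ± 0.246) led, ahead of Tlr2 (2.19 ± 0.352), Tlr7 (1.77 ± 0.403), Cd14 (1.07 ± 0.0320), Tlr9 (0.422 ± 0.190) and Tlr8 (0.315 ± 0.0520). There Tlr9 and Tlr8 overlapped, and so did Tlr2 and Tlr7.

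The first comparison asked how white matter and spinal cord differed, over 8 and 12 libraries, with limma on log2 FPKM and Benjamini-Hochberg adjustment over all 15210 genes. The receptors of double-stranded RNA and of lipopolysaccharide differed most, and both were lower in white matter. Tlr3 was lower by 1.51 on the log2 scale (log2 difference −1.51 ± 0.20, SE, adjusted p = 1.47e-06), Tlr4 by −1.20 ± 0.24 (adjusted p = 0.000173), Tlr9 by −0.78 ± 0.33 (adjusted p = 0.0427) and Tlr7 by −0.60 ± 0.26 (adjusted p = 0.0478). Of the 7 members tested, 4 were called lower and 0 higher, against a background of 47.1% of all genes called lower and 72.2% called in either direction. Tlr2 (−0.18 ± 0.39), Tlr8 (−0.45 ± 0.43) and Cd14 (−0.48 ± 0.45) were not called. The members' median was −0.60, and that of all genes tested −0.18. The 8 and 12 libraries came from 4 animals and the fit had no animal term, so its p-values take libraries of an animal as independent. An exact sign-flip test over 4 animals cannot go below p = 0.125. Without both white matter libraries of stimulated animal 2, an alternative added after seeing the data, all 7 members were called lower. In that fit 76.9% of all genes were called in either direction, with 7623 of 15210 lower. Tlr2, Cd14 and Tlr8 then differed by −0.88 ± 0.13, −1.30 ± 0.17 and −1.16 ± 0.24. Tlr3 and Tlr4 were the 2 members still called under quantile or upper-quartile scaling, and Tlr2 turned to 0.024 under the former. Without control animal 1, control animal 2 or stimulated animal 1, 2 members were called, and without stimulated animal 2 all 7. Called in either direction were 62.3%, 63.9%, 64.4% and 77.3% of all genes, with 6099, 6205, 6332 and 7774 of 15210 lower.

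The white matter under the implant was next set against the matching block of the other hemisphere (region 1 against region 2). Tlr8 was higher under the implant by 2.74 ± 0.67 on the log2 scale (SE, adjusted p = 0.0182), Tlr9 by 1.73 ± 0.51 (adjusted p = 0.0442) and Tlr7 by 1.35 ± 0.41 (adjusted p = 0.0471). These 3 endosomal members passed the test (3 of 7, background 6.86% of all genes called higher and 8.61% in either direction). With 2 region 2 libraries at the table's lowest value for Tlr8 and 1 for Tlr9, the differences of these genes are understated on this scale. Cd14 (2.03 ± 0.70, adjusted p = 0.0769), Tlr2 (1.59 ± 0.60, adjusted p = 0.103), Tlr4 (1.06 ± 0.37, adjusted p = 0.0765) and Tlr3 (0.74 ± 0.31, adjusted p = 0.14) were not called. The median over the 7 was 1.59, and over all genes 0.06.

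Within animals, 6 of the 7 tested members and Tlr6 were higher in region 1 in all 4 animals (all genes tested, 22.2%), and Tlr3 in 3 of 4, while for 0 of the 9 found were all region 1 libraries above all region 2 libraries (4.4% of all genes). The exception for Tlr3 was stimulated animal 2, in which the log2 difference was −0.53 against 1.03, 1.10 and 1.36 in the others. For Tlr7 the 4 differences were 1.65, 1.59, 1.93 and 0.22, and for Tlr4 1.43, 1.02, 1.74 and 0.07, again least in stimulated animal 2. Cd14 kept more of its difference there, with 2.13, 1.75, 2.51 and 1.72. An exact sign-flip test over 4 animals cannot go below p = 0.125, and each of the 6 reached that value. With the animal as a block, 5 members were called, Cd14 and Tlr4 in addition (background 12.2%). Without both white matter libraries of stimulated animal 2 all 7 were called (background 21.9%), with log2 differences from 1.16 (Tlr3) to 3.05 (Tlr8), whereas a fit on the 8 libraries of these regions alone called 0 of the members and 0.0% of all genes. Without control animal 1, control animal 2 or stimulated animal 1, 0 were called (background 0.625%, 0.638% and 0.171%), and without stimulated animal 2 all 7 (24.2%).

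Markers of several cell types moved with this comparison in the 3 other animals as well. There the myeloid list summed to 113 to 190 FPKM in region 1 and 38.1 to 45.4 in region 2, and the microglial list to 104 to 147 and 68.4 to 70.6. The monocyte and macrophage list summed to 53.5 to 81.2 and 17.9 to 23.8 FPKM. The neutrophil list summed to 1.72 to 3.31 and 1.12 to 1.51 FPKM, with several of its genes at the lowest value of 0.1. Oligodendrocyte markers summed to 1540 to 2637 and 626 to 965 FPKM, astrocyte markers to 571 to 959 and 209 to 259, and fibroblast markers to 16.6 to 27.3 and 4.15 to 6.08. Neuronal, endothelial and T cell markers overlapped between these regions. The part of these lists in the members' difference was not tested.

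In the cord, the lesion epicentre held more RNA of every tested member than the cord rostral to it. Tlr8 was higher at the lesion by 2.65 ± 0.67 on the log2 scale (SE, adjusted p = 0.0105), a geometric mean of 6.29-fold within animals, Tlr9 by 1.78 ± 0.51 (adjusted p = 0.0223; 3.43-fold) and Tlr7 by 1.61 ± 0.41 (adjusted p = 0.0108; 3.05-fold). These were the 3 of 7 called, against a background of 6.78% of all genes called in that direction and 19.6% in either. Cd14 (1.68 ± 0.70, adjusted p = 0.0963), Tlr2 (1.38 ± 0.60, adjusted p = 0.11), Tlr4 (0.85 ± 0.37, adjusted p = 0.107) and Tlr3 (0.72 ± 0.31, adjusted p = 0.105) missed the threshold in a fit whose spread is shared with the white matter libraries. Without both white matter libraries of stimulated animal 2 the differences stayed as they were, the standard errors fell (for Cd14 from 0.70 to 0.24), and all 7 were called (background 33.7%). All 7 were likewise called from the 8 libraries of the 2 regions alone (background 28.4%), and without stimulated animal 2 (32.3%). Without control animal 1, control animal 2 or stimulated animal 1, fits in which the white matter of stimulated animal 2 remained, 0 were called (6.41%, 3.44% and 9.15%).

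The same was seen animal by animal. For 8 of the 9 members found, all but Tlr5, the lesion was above the rostral cord in all 4 animals (24.1% of all genes tested) and the libraries of the 2 regions did not overlap (13%). The log2 differences were closely alike between animals for Tlr3 (0.84, 0.68, 0.72 and 0.64) and Tlr7 (1.60, 1.69, 1.71 and 1.43), and split for Tlr8, with 3.27 and 3.36 in the controls against 2.12 and 1.87 in the stimulated animals. The exact sign-flip p was 0.125 for each of the 8, the smallest 4 animals allow.

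Caudal to the lesion the tested members lay on average between the other cord regions. Region 5 was above region 3 in all 4 animals for 8 of 9 members (31.9% of all genes), without overlap for 7 of 9 (20.5%), by a log2 difference of 1.33 ± 0.67 (SE) for Tlr8, 0.96 ± 0.70 for Cd14, 0.95 ± 0.41 for Tlr7 and 0.86 ± 0.60 for Tlr2, but this passed for 0 of 7 (lowest adjusted p = 0.166 for Tlr7, limma; background 4.32%). Without both white matter libraries of stimulated animal 2, 6 were called, all but Tlr9 (background 19.9%). Between the lesion and region 5, 0 of 7 were called (lowest adjusted p = 0.146 for Tlr9, background 7.99%), and 1 had an unadjusted p under 0.05. Tlr7 and Tlr9 were higher at the lesion in all 4 animals (3.87% of all genes) with no overlap of libraries (1.84%), with geometric means of 1.58-fold and 2.22-fold. For Tlr7 the regions nearly touched, with stimulated animal 2 at 4.043 FPKM at the lesion and 4.020 caudally. For the tested members other than Tlr7 and Tlr9 the order was turned around in stimulated animal 2, in which Cd14 was lower at the lesion than caudally by a log2 difference of −0.44. Without both white matter libraries of that animal, Cd14, Tlr7, Tlr8 and Tlr9 were called (4 of 7, background 21.8%).

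**Figure D3:**
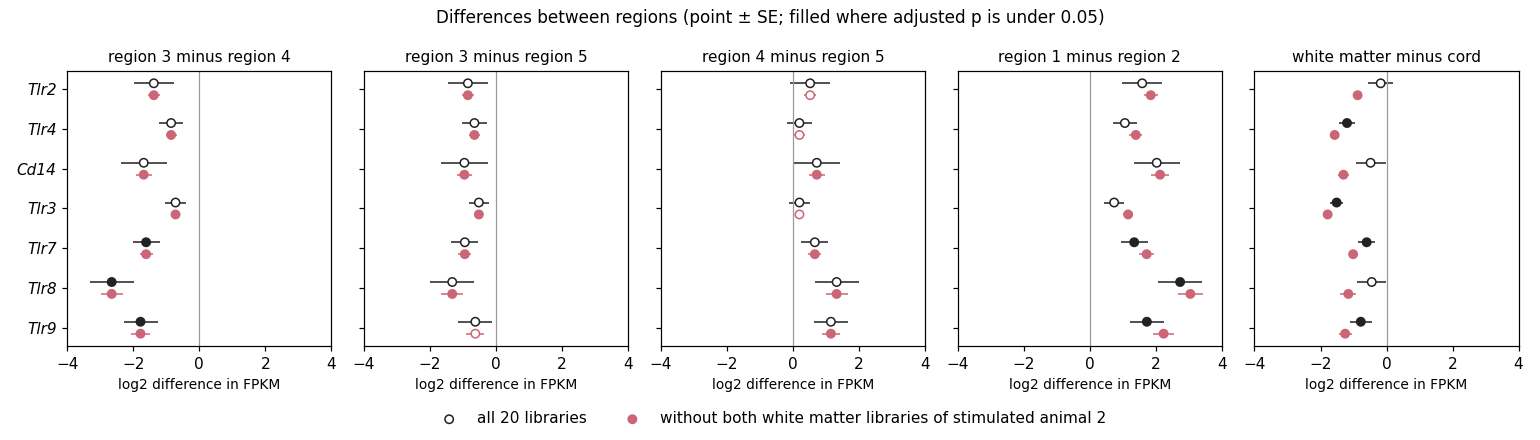
Log2 difference ± SE of the 7 tested members in the 5 comparisons of regions, fitted by limma, with all 20 libraries in black and without both white matter libraries of stimulated animal 2 in red, and filled symbols where the adjusted p was under 0.05. In the cord comparisons the points coincide and the red bars are shorter, and in white matter against cord and region 1 against region 2 the red points lie farther from 0.

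The difference between lesion and rostral cord was not the same for each member when it was set against the myeloid genes of the same library. The myeloid list summed to 96.2 to 148 FPKM in region 3, 225 to 456 in region 4 and 205 to 258 in region 5, and none of its genes is a member. Per 100 FPKM of that list, Tlr7 was 1.46, 1.57 and 1.44 FPKM on average in regions 3, 4 and 5, Cd14 0.915, 1.02 and 0.915 and Tlr2 1.85, 1.68 and 1.71, so these values changed little along the cord. Tlr3 went from 2.76 ± 0.300 (SD, n = 4) rostrally to 1.61 ± 0.350 at the lesion and Tlr4 from 2.33 ± 0.322 to 1.47 ± 0.203, with no overlap between regions for either. Tlr8 went the other way, from 0.263 ± 0.0143 to 0.617 ± 0.247, with every lesion library above every rostral one. These ratios are descriptions, and the part of myeloid cells in the members' difference was not tested.

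Stimulation was compared within each region, 2 animals against 2. In region 1 the log2 difference of stimulated over control libraries was 1.95 ± 1.00 (SE) for Cd14, 1.46 ± 0.73 for Tlr2, 1.22 ± 0.83 for Tlr8, 0.69 ± 0.36 for Tlr4, 0.69 ± 0.33 for Tlr7, 0.39 ± 0.18 for Tlr3 and 0.36 ± 0.40 for Tlr9. None was called, with adjusted p from 0.712 to 0.784 (limma, 0 of 7 called, background 0.0%), and 0 of the 7 had an unadjusted p under 0.05. For Cd14, Tlr2, Tlr3, Tlr4 and Tlr7 both stimulated libraries lay above both controls (5 of 7, where 21.2% of all genes did), and for Tlr8 and Tlr9 the groups overlapped. In region 2 the differences were 1.93 ± 1.15 for Tlr2, 1.77 ± 1.31 for Cd14, 1.44 ± 1.45 for Tlr8, 1.23 ± 0.92 for Tlr7, 1.13 ± 1.30 for Tlr9, 1.05 ± 0.73 for Tlr3 and 1.01 ± 0.86 for Tlr4, again with 0 of 7 called (adjusted p = 0.949 for each in limma, background 0.0%, 0 at an unadjusted p under 0.05). Only Tlr2 and Tlr3 did not overlap there (2 of 7, 20.2% of all genes).

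Stimulated animal 2 held the highest level of 8 of the 9 members found in region 1 and of 9 of 9 in region 2, as it did for 24.2% and 43.9% of all genes tested. In region 1 its level was at least 3 times that of the highest other animal for Cd14 (6.38 times), Tlr5 (5.71), Tlr2 (3.90) and Tlr8 (3.72), which makes 4 of the 9 members found where 3.29% of all genes tested went that far. In region 2 this held for 7 of 9 (5.67% of all genes), with Cd14 at 10.8, Tlr2 at 8.19, Tlr8 at 7.34, Tlr7 at 4.59, Tlr9 at 4.48, Tlr4 at 3.96 and Tlr3 at 3.63 times. The animal was singled out after its values were seen, so these ratios are a description. Without it, the region 1 differences of Cd14 and Tlr2 were 0.61 and 0.47, and those in region 2 were 0.04 and 0.42. The differences of Tlr9 in region 1 and of Tlr4, Tlr8 and Tlr9 in region 2 turned negative (−0.13, −0.11, −0.43 and −0.49). Without stimulated animal 1, the region 2 differences of Cd14 and Tlr2 were 3.50 and 3.45. Each of these fits holds a lone stimulated animal, assumed to vary like the controls, so only the differences are given.

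The members did not all follow the myeloid list of stimulated animal 2 in proportion. In region 1 that list, whose genes microglia share, summed to 332 FPKM against 113 to 190 in the others. Proportions to the neutrophil or the monocyte and macrophage list were not computed. Per 100 FPKM of the myeloid list, region 1 of stimulated animal 2 held 4.27 FPKM of Cd14 against 1.08 to 1.39 in the other 3 animals and 5.51 of Tlr2 against 2.46 to 2.94, but 0.671 of Tlr3 against 1.20 to 1.45 and 1.14 of Tlr4 against 1.35 to 1.96. In region 2 the corresponding values were 1.47 against 0.870 to 0.952 for Cd14, 3.57 against 2.2 to 2.86 for Tlr2, 1.11 against 1.94 to 2.00 for Tlr3 and 1.24 against 1.73 to 2.00 for Tlr4. The part of neutrophils, monocytes, T cells, astrocytes and fibroblasts, whose marker sums were highest in this animal in both regions, in the members' levels was not tested.

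**Figure D4:**
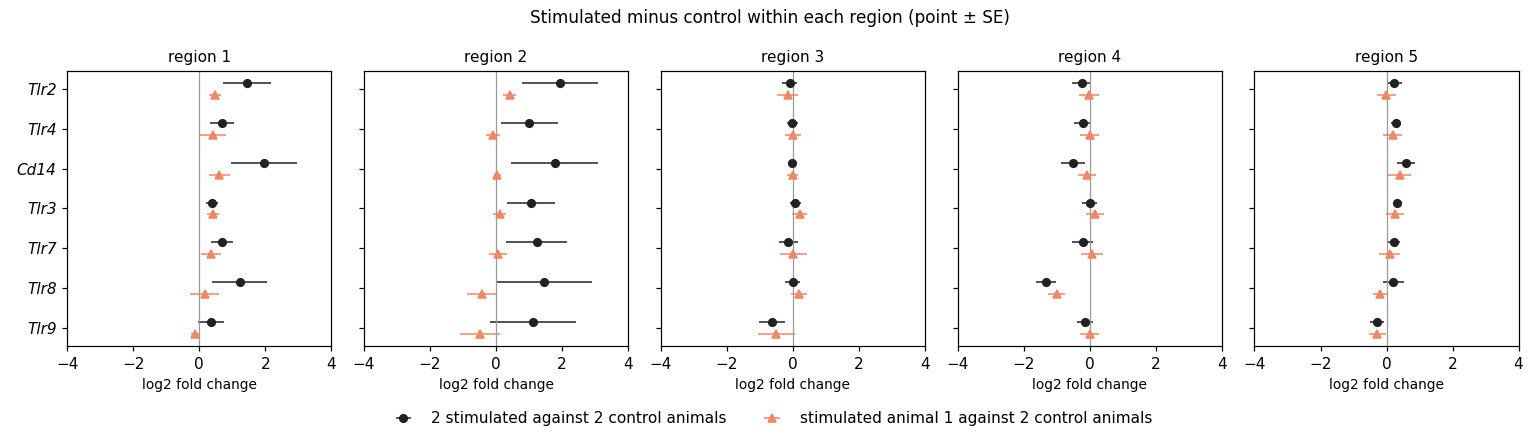
Log2 difference ± SE between stimulated and control libraries for the 7 tested members in each region, fitted by limma, with 2 animals against 2 in black and stimulated animal 1 alone against both controls in orange. The black points reach 1.95 in region 1 and 1.93 in region 2 with wide bars, most orange points there lie nearer 0, and no comparison passed the threshold.

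In the cord, stimulation was compared in the same way. Rostral to the injury Tlr9 differed by −0.63 ± 0.40 (SE), with control animal 1 above the other 3, and by −0.11 without that animal and −1.15 without control animal 2. There the groups overlapped for all 7 (29.9% of all genes did not overlap), and 0 were called (lowest adjusted p = 0.956, 0 at an unadjusted p under 0.05, background 0.0%). At the lesion Tlr8 was lower in the stimulated animals by a log2 difference of −1.32 ± 0.30, with 3.50 and 2.76 FPKM in the controls and 1.55 and 0.992 in the stimulated animals. Its adjusted p was 1.0 in limma, and it was the 1 member of 7 with an unadjusted p under 0.05, where 341 of 15210 genes had one and 0.0% were called. For Tlr8 alone the groups did not overlap (1 of 7; 7.69% of all genes did so in that direction). Beside it, the monocyte and macrophage list at the lesion summed to 254 and 189 FPKM in the controls and 165 and 92.1 under stimulation. The fibroblast list (49.5 and 46.1 against 42.3 and 27.9) and the T cell list (0.741 and 0.667 against 0.616 and 0.544) were also lower. The neutrophil list went the other way, with 5.68 and 5.05 FPKM in the controls and 33.9 and 6.36 in the stimulated animals. The myeloid and microglial lists overlapped between the groups. The part of these lists in the difference was not tested. Cd14 differed by −0.51 ± 0.36, with overlapping groups.

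Caudal to the lesion both stimulated animals were above both controls for Cd14 (0.59 ± 0.27), Tlr3 (0.32 ± 0.13), Tlr4 (0.29 ± 0.15) and Tlr7 (4 of 7, 18.5% of all genes), and below them for Tlr9 (1 of 7, 6.07%), with 0 called (adjusted p = 1.0 in limma, 0 at an unadjusted p under 0.05, background 0.0197%). The groups nearly touched for Tlr7, with stimulated animal 1 at 3.280 and control animal 1 at 3.275 FPKM. They did so for Tlr9 as well, with stimulated animal 1 at 0.557 and control animal 2 at 0.565 FPKM. Lists of other cells moved alongside in region 5. The fibroblast list summed to 66.7 and 96.5 FPKM in the stimulated animals and 36.8 and 37.1 in the controls. The neutrophil list summed to 11.2 and 10.7 FPKM against 8.77 and 4.39. Their part in these differences was not tested. No difference between the stimulation effects of regions 1 and 2 passed a test on the differences within animals (0 of 7 called, lowest adjusted p = 0.884 in limma, background 0.0%). Over all 10 pairs of regions and 7 members, 70 differences of effects were tested, 0 were called, the lowest adjusted p was 0.541, and 1 had an unadjusted p under 0.05.

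The genes around the receptors were described from a list of 67 symbols (ligands, co-receptors, adaptors, kinases, transcription factors, inhibitors and targets), of which 63 were found and 57 entered the tests. Between white matter and cord 26 were called lower and 6 higher (background 47.1% and 25.0%). Among the lower were the Tlr4 ligand S100a8 (−2.30 ± 0.90), the interferon-induced chemokine Cxcl10 (−1.62 ± 0.52), the Tlr4 homologue Cd180 (−1.49 ± 0.24), the adaptor Tirap (−1.15 ± 0.20) and the proteoglycan Vcan (−1.14 ± 0.17). Among the higher were the prostaglandin synthase Ptgs2 (3.82 ± 0.17), the receptor Cd200r1 (1.75 ± 0.19), the inhibitors Socs1 (0.74 ± 0.28) and Tnfaip3 (0.59 ± 0.24), and the ubiquitin ligase Traf3 (0.43 ± 0.06). Values in brackets are log2 differences ± SE. Median differences were −0.36 for the 57 and −0.18 for all genes. In region 1 against region 2, 10 of 57 were called higher and 0 lower (background 6.86% higher). They were led by the scavenger receptor Cd36 (3.37 ± 0.73), which assists Tlr2 with Tlr6, the transcription factor Irf7 (2.17 ± 0.41), which acts below Tlr7 and Tlr9, the matrix protein Tnc (2.04 ± 0.30), a ligand of Tlr4, the proteoglycan Bgn (1.77 ± 0.44) and Cd180 (1.51 ± 0.37), with a median of 0.55 over the 57. From the libraries of these regions alone 0 were called, and without both white matter libraries of stimulated animal 2 the count was 25 (all genes 0.0% and 21.9%). Leaving out control animal 1, control animal 2 or stimulated animal 1 gave 2, 1 and 0 (all genes 0.625%, 0.638% and 0.171%). Between the lesion and the rostral cord 13 of 57 were higher at the lesion and 0 lower (background 6.78% in that direction, 19.6% in either). From the libraries of these regions alone 29 were called, and 32 without both white matter libraries of stimulated animal 2 (all genes 28.4% and 33.7%). Region 3 against region 4 stood at −2.68 ± 0.73 for Cd36, −2.39 ± 0.30 for Cd200r1, −1.82 ± 0.56 for the transcription factor Irf8, −1.65 ± 0.54 for the adaptor Pik3ap1 and −1.59 ± 0.49 for Unc93b1. Sarm1, an adaptor of the family, was the 1 gene of 57 called between regions 4 and 5 (lower at the lesion, background 7.99%). Tnc and Cd200r1 were the 2 of 57 called between regions 3 and 5 (both lower rostrally, background 4.32%). Neither count was above the share of all genes. Stimulation gave 0 of 57 in each region, with a median of 0.54 in region 1 and 0.46 in region 2 (all genes −0.03 and 0.08). In both regions every list of these genes summed highest in stimulated animal 2. The targets in region 1, for example, summed to 127 FPKM there against 10.9 to 15.9 in the others.

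The chaperone of the endosomal receptors, Unc93b1, was at 6.29 ± 1.26 FPKM (SD, n = 4) rostrally and 19.7 ± 7.01 at the lesion (adjusted p = 0.0311, limma). It was at 12.5 ± 5.36 in region 1 and 6.41 ± 7.93 in region 2 (log2 difference 1.55 ± 0.49, SE, adjusted p = 0.0579). Myd88 was at 2.21 ± 0.399 FPKM rostrally and 4.04 ± 0.918 at the lesion, a log2 difference of −0.86 ± 0.41 for region 3 against region 4 that was not called (adjusted p = 0.142). Among all genes, Unc93b1 was also one of the 3 whose level followed Tlr7 most closely over the 20 libraries (Pearson r = 0.988), with the signalling protein Vav1 (0.99) and the adaptor Ticam2 (0.987). Tlr8 was closest to Cybb (0.992), the catalytic subunit of the phagocyte oxidase. Tlr3 was closest to Ap3b1 (0.987), Tlr4 to Abcg3l1 (0.99), and Tlr9 to Slfn13 (0.972). Cd14 was closest to Ncf4 (0.988), another phagocyte oxidase subunit, and Tlr2 to Fyb (0.985), an adaptor of haematopoietic cells. Among the members the closest pair was Cd14 with Tlr2 (0.978), and Tlr3 went most closely with Tlr4 (0.96). The least alike were Tlr2 with Tlr3 (0.599 over 20 libraries and 0.828 over the 18 without the white matter of stimulated animal 2). These correlations describe libraries that share animals and regions and carry no test.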

How the data were processed

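RNA was extracted from 5 tissue regions of each of 4 rats and sequenced as stranded total RNA. The deposited table holds FPKM values, which the authors computed per gene; the submitters' processing notes name TopHat2 2.1.0 and Cufflinks 2.2.1, and the annotation version is not given in the sources used here. Its lowest value is 0.1, and read numbers behind a value are unknown, so no interval for counting error can be given. All 20 columns were matched to samples by name, and 0 columns were left without one.

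Values were taken to log2 after a floor of 0.1. Genes with at least 1 FPKM in any library (15210 of 30443) were fitted with limma 3.58.1 (lmFit, eBayes with trend) in R 4.3.3, with Benjamini-Hochberg adjustment over all of them and a threshold of 0.05. Background shares of genes called are for either direction unless a direction is named. Stimulation was tested per region on 4 libraries, regions on the means of 5 regions over 20 libraries without a block, and the difference of stimulation effects on within-animal differences. Single values over animals were tested by exact two-sided sign-flip tests. The fits were also run on simulated data with independent libraries. Correlation within animals and outlying libraries were not part of that simulation. Regions of an animal are paired by that animal. Deviations from the mean of a region's 4 libraries correlated at 0.588 on average between regions 1 and 2 and 0.208 between regions 3 and 4. They correlated at 0.125 between regions 3 and 5 and 0.028 between regions 4 and 5. Any stimulation effect shared by 2 regions is part of these values.

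Named genes were all members, Unc93b1 and Myd88, up to 5 pathway genes per direction by size among those called, and the 3 genes closest to a member by Pearson's r, of which the closest is printed (all 3 for Tlr7). The members and lists were chosen with earlier results of these data known. Alternatives were another pseudocount, other filters, quantile and upper-quartile scaling, no trend, single-model and block fits, fits on fewer libraries, and each animal left out. Promoter sequences and motif searches used RefSeq windows on GRCr8 and Python 3.11.15. Tlr1 and the partners Ly96 and Ticam1 were not analysed here.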

Additional observations from a re-analysis of the deposited data

Results flagged for a closer look

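Each member found was examined in each region for a library far from the other 3, meaning that the gap of the highest or lowest value to its nearest neighbour took a larger part of the whole range than Dixon's 95% critical value for 4 samples allows. Of the 45 combinations of gene and region, 17 met this. The limit allows about 1 in 20 for independent values, but the members share libraries and correlate, so that share is no yardstick here. The share of all genes that met the limit was not computed. In 15 of the 17 the library was that of stimulated animal 2, which was highest for 24.2% of all genes tested in region 1 and 43.9% in region 2.

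In region 1 that animal stood apart for Cd14 (14.2 FPKM), Tlr2 (18.3), Tlr8 (4.69), Tlr9 (1.16) and Tlr5 (0.660). In region 2 it stood apart for every member found, with Tlr2 at 10.4 FPKM, Tlr7 at 4.49, Cd14 at 4.28, Tlr4 at 3.60, Tlr3 at 3.22, Tlr8 at 1.34, Tlr9 at 1.00 and Tlr6 at 0.463. Tlr5 there was at 0.100481 FPKM with the other 3 animals at the lowest value of 0.1, a gap of no practical size. Caudal to the lesion the same animal stood apart for Tlr2 alone (5.07 FPKM). Control animal 1 stood apart for Tlr9 in the rostral cord (0.706 FPKM) and in the caudal cord (0.806 FPKM), and was the highest animal in both.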

How the results depend on the processing

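The 7 tested members and 11 comparisons gave 77 log2 differences, with 1015 values recomputed under alternatives, of which 45 turned sign. Of these 45, 35 belonged to 20 differences of stimulation, or between stimulation effects, that are not given as values above. Of the 755 values of the other 57 differences, 633 kept their direction and their side of the threshold, 45 fell below it, 67 passed it newly and 10 turned sign. For white matter against cord, 4 members were called, 2 with log2(FPKM + 1), with no filter, and with quantile or upper-quartile scaling, and 7 without both white matter libraries of stimulated animal 2 or without its region 2 library alone (leaving out 1 animal: 2 to 7). Of all genes 71.5%, 40.9%, 72.8%, 74.4%, 76.9% and 74.5% were called in these 6 fits, against 72.2%. Tlr2 turned to 0.024 under quantile scaling (leaving out 1 animal: −0.87 to 0.14). For region 1 against region 2, 3 were called, 0 with log2(FPKM + 1), no filter or these libraries alone, 5 with the animal as a replicate block, and 7 without both or the region 2 library of stimulated animal 2 (leaving out 1 animal: 0 to 7). Of all genes 6.32%, 2.29%, 0.0%, 12.2%, 21.9% and 23.5% were called there, against 8.61%. For region 3 against region 4, 3 were called, 5 with quantile scaling, and 7 from these libraries alone or without both (leaving out 1 animal: 0 to 7; all genes 31.8%, 28.4% and 33.7%, against 19.6%). For region 4 against region 5, 0 were called, 1 with log2(FPKM + 1) or these libraries alone, and 4 without both (leaving out 1 animal: 0 to 5). Of all genes 8.7%, 6.35% and 21.8% were called there, against 7.99%, and 0.0329% to 7.21% with 1 animal left out. For region 3 against region 5, 0 were called, and 6 from these libraries alone or without both (leaving out 1 animal: 0 to 4). Of all genes 21.8% and 19.9% were called there, against 4.32%, and 0.355% to 8.13% with 1 animal left out. Of 145 recomputed counts of pathway genes, 42 moved by over 1.5 times, with 0 to 28 called for region 1 against region 2 and 3 to 36 for region 3 against region 4 when 1 animal was left out. In those fits 0.171% to 24.2% and 3.44% to 32.3% of all genes were called. Scaling moved the share of all calls that were higher in the first-named tissue or region. Under quantile and upper-quartile scaling it went from 34.7% to 45.6% and 41.6% for white matter against cord, from 79.6% to 52.9% and 58.6% for region 1 against region 2, from 65.4% to 60.2% and 54.0% for region 3 against region 4, from 11.7% to 41.5% and 52.4% for region 4 against region 5, and from 35.8% to 60.8% and 64.2% for region 3 against region 5. Where the white matter libraries of stimulated animal 2 were left out of a cord comparison, the differences were the same by construction and the shared spread was smaller. For the other changes the cause was not tested.

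For stimulation, leaving out 1 animal gave log2 differences of −0.13 to 0.84 for Tlr9 in region 1. In region 2 they were −0.11 to 2.12 for Tlr4, −0.43 to 3.31 for Tlr8 and −0.49 to 2.74 for Tlr9. The lowest came each time without stimulated animal 2. Such fits leave 1 library in a group, so their calls are not given here. For the difference of the stimulation effects between regions 1 and 2 it gave −1.91 to 0.37 for Tlr9 and −0.22 to 0.57 for Cd14. The median of all genes was −0.18 for white matter against cord and −0.04 under quantile scaling. With the replicate number as a block, 0 members were called for stimulation in any region or for the difference of effects, and the same held with the numbers crossed, an alternative added after seeing the data. Deviations of same-numbered control and stimulated animals correlated from −0.21 to 0.32 (highest in region 4), and the labels state no pairing by number. The animal block changed no call other than those of Cd14 and Tlr4 in region 1 against region 2. With 2 animals per group and unknown depth, values near 0.1 FPKM (Tlr5, Tlr6, and Tlr8 and Tlr9 in region 2) bear little weight.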

Other observations

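Several genes outside the 9 members stood high in the white matter of stimulated animal 2, and these were chosen after their values were seen. In region 1 the cytokine Il1b, a target of the pathway, was at 69.0 FPKM there and between 0.172 and 0.591 in the other 3 animals. The chemokine Ccl2 was at 28.0 FPKM against 0.548 to 1.01, and the metabolic enzyme Acod1, which activated macrophages induce, at 5.66 against 0.1 to 0.193. In region 2 of the same animal Il1b was at 7.59 FPKM against 0.1 to 0.333 and Ccl2 at 13.7 with the others listed at 0.1, while Acod1 was at 0.316. Tlr10, a family member of unsettled function, was at 2.54 FPKM in region 1 and 1.83 in region 2 of this animal, and at 0.828 or less in the other 18 libraries. None of these genes was called for stimulation with all 4 animals in the fit (limma).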
